A study of Mus musculus with 8 samples.

Results

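Sprouting vessels are led by tip cells, endothelial cells that extend filopodia along gradients of vascular endothelial growth factor, degrade and rebuild the basement membrane, and signal to the stalk cells and pericytes that follow them. The 8 genes described here are *Esm1*, *Kcne3*, *Lxn*, *Nid2*, *Adm*, *Ramp3*, *Pdgfb* and *Igfbp3*, which were chosen by name as transcripts of tip cells and angiogenic sprouts. All 8 were found among the 33641 gene symbols of the deposited tables, 1 row for each symbol. Tip cell transcripts are known to be raised in tumor vessels, where hypoxia and growth factors keep sprouting active.

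The endothelial cells came from the orthotopic Lewis lung carcinoma (LLC) model, in which mCherry-labelled cells of a mouse lung carcinoma line grow after injection into the left lung. CD45-CD31+ cells were sorted from tumors dissected at day 21, and RNA was sequenced from 4 control samples and 4 end*Foxf1*+/- samples, called tumor endothelial cells (TECs) here. End*Foxf1*+/- mice are *Pdgfb-CreER* tg/+;*Foxf1* fl/+, and tamoxifen, given at 6 to 8 weeks of age, lets the Cre recombinase remove exon 1 of 1 *Foxf1* allele. The study also describes tamoxifen-treated control mice, and says for this tumor model that tamoxifen-treated mice received the LLC cells. *Foxf1* encodes a forkhead transcription factor of lung endothelium. The labels give the control genotype only as control. The study's results name single-transgenic *Foxf1* fl/+ or *Pdgfb-Cre* littermates as controls, and its methods name C57Bl/6 wild-type controls for the same tumor model. The Cre is driven by the promoter of *Pdgfb*, itself 1 of the 8 genes, so the cells with the deletion are those in which that promoter was active. Control libraries are called C1 to C4 and end*Foxf1*+/- libraries H1 to H4. The labels do not say whether a sample is 1 mouse or a pool, so p-values measure the spread between these samples.

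The libraries were unequal in endothelial transcripts, which is given first because it touches every value. The endothelial level, the geometric mean level of 20 endothelial markers such as *Pecam1* and *Cdh5*, was 84.9 to 107% of the control mean in control libraries, 107% in H1, 110% in H2, 58.5% in H4 and 5.59% in H3. All 20 markers were lower in H3 than in every control library, and none was at 0. Across genes, H3 had a median correlation of 0.795 with the remaining libraries and H4 of 0.892, against 0.958 to 0.968 for all others. Summed TPM of 10 pericyte and fibroblast markers was 103 to 168 in control libraries and 215, 140, 1320 and 324 in H1 to H4, with no marker at 0. The high sum of H3 came from *Col3a1* (556 TPM), *Dcn* (533 TPM) and *Lum* (183 TPM), the 3 markers of the list that were highest there, whereas 4 were lowest there (*Rgs5*, *Col1a2*, *Postn* and *Des*). Of these, *Rgs5*, a pericyte gene, was at 10.7 to 18.9 TPM in control libraries and at 3.71, 3.73, 0.602 and 6.66 TPM in H1 to H4. *Postn* was likewise below every control library in H1 to H4. Summed TPM of 10 myeloid markers was 1457 to 5112 in control libraries and 1863 to 8764 in end*Foxf1*+/- libraries, most of it *Lyz2*, and all 10 were highest in H3. *Cd68* (25.9 to 57.5 TPM in control and 60.9, 106, 522 and 89.8 TPM in H1 to H4) and *C1qa* (3.19 to 5.35 TPM and 23.2, 22.1, 171 and 8.04 TPM) were above every control library. The 7 platelet markers summed to 763 to 1626 TPM in control and 345 to 874 TPM in end*Foxf1*+/- libraries, and the 8 epithelial markers to 6453 to 30643 and 1550 to 23098 TPM. *Foxf1* was at 213 to 331 TPM in control TECs and at 177, 203, 14.04 and 105 TPM in H1 to H4, below every control library in TPM. In such bulk samples, fewer cells of a type and less RNA per cell cannot be told apart.

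**Figure D1:**
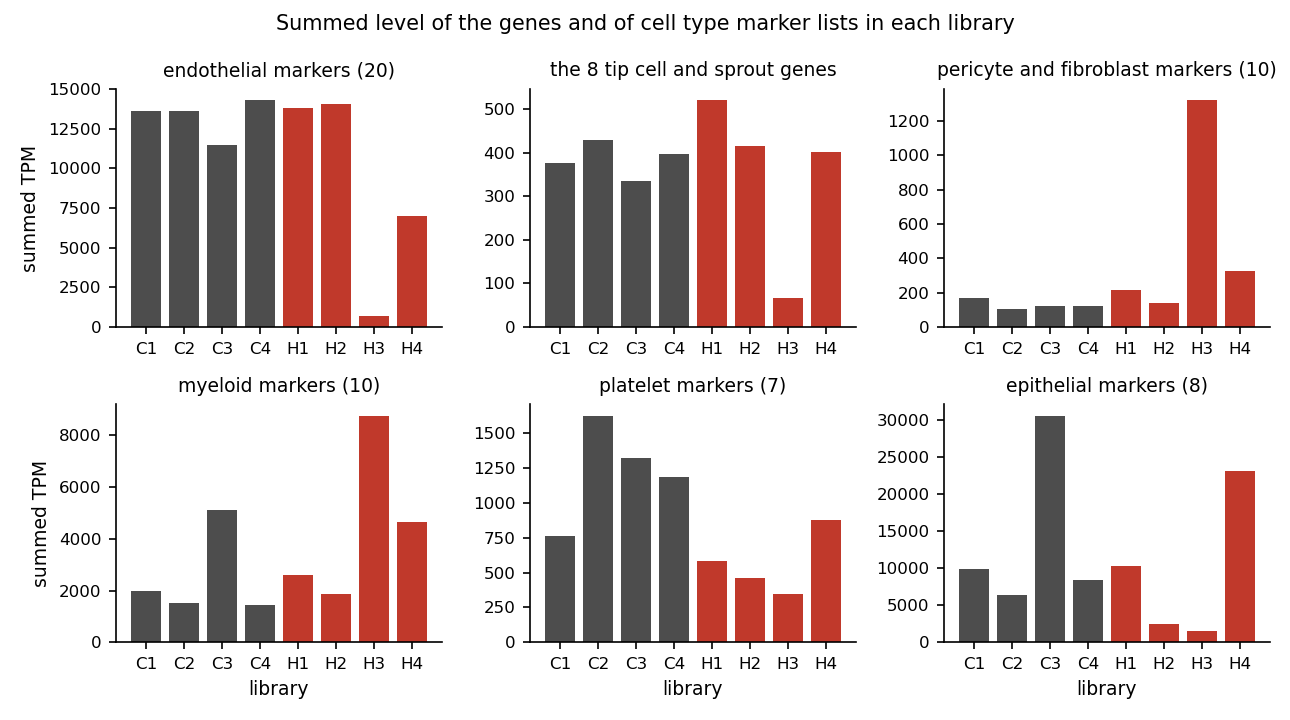
Summed TPM (vertical axes, starting at 0) of 20 endothelial markers, of the 8 tip cell and sprout genes and of 4 lists of markers of other cell types, 1 bar for each library, with control libraries in grey and end*Foxf1*+/- libraries in red. In H3 the endothelial markers and the 8 genes are lowest (67.8 TPM for the 8 genes), and the summed pericyte and fibroblast markers are highest (1320 TPM, mostly *Col3a1*, *Dcn* and *Lum*).

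Each gene was therefore compared on 2 scales. TPM, the length-scaled transcript abundance, was deposited by the authors, and levels of different genes can be set side by side on it. The first scale is log2(TPM + 1). The second subtracts the mean log2(TPM + 1) of the 20 endothelial markers of the same library. It is also given as a percentage of the endothelial level, with 1 added to both. The median of all 14964 tested genes was itself shifted between the groups, by a log2 difference of −0.17 on the TPM scale and 0.98 relative to the endothelial markers. Without H3 the shifts were 0.01 and 0.19. A difference of 0.98 on the second scale is therefore that of the middle gene, and 96.9% of all tested genes were above 0 there, or 71.4% without H3. For *Foxf1* the groups overlapped on the second scale, with a log2 difference of −0.52 (standard error 0.64, limma adjusted p = 0.548). Without H3 the *Foxf1* difference was −0.66 there (standard error 0.20, limma adjusted p = 0.671), with no overlap.

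*Lxn* and *Pdgfb* were the most abundant of the 8 in control TECs and *Kcne3* and *Nid2* the least. Mean TPM in control libraries fell in the order *Lxn* (163), *Pdgfb* (144), *Igfbp3* (30.4), *Ramp3* (20.2), *Esm1* (16.4), *Adm* (7.58), *Nid2* (2.28) and *Kcne3* (1.60). The control ranges of *Lxn* and *Pdgfb* overlapped, as did those of *Igfbp3* and *Ramp3*, of *Ramp3* and *Esm1*, and of *Nid2* and *Kcne3*. Together the 8 genes summed to 334 to 430 TPM in control libraries and to 521, 416, 67.8 and 403 TPM in H1 to H4. In 6 of the 8 genes the lowest of all libraries was H3, the exceptions being *Adm* and *Kcne3*. The same held for 8338 of all 14964 tested genes.

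**Figure D2:**
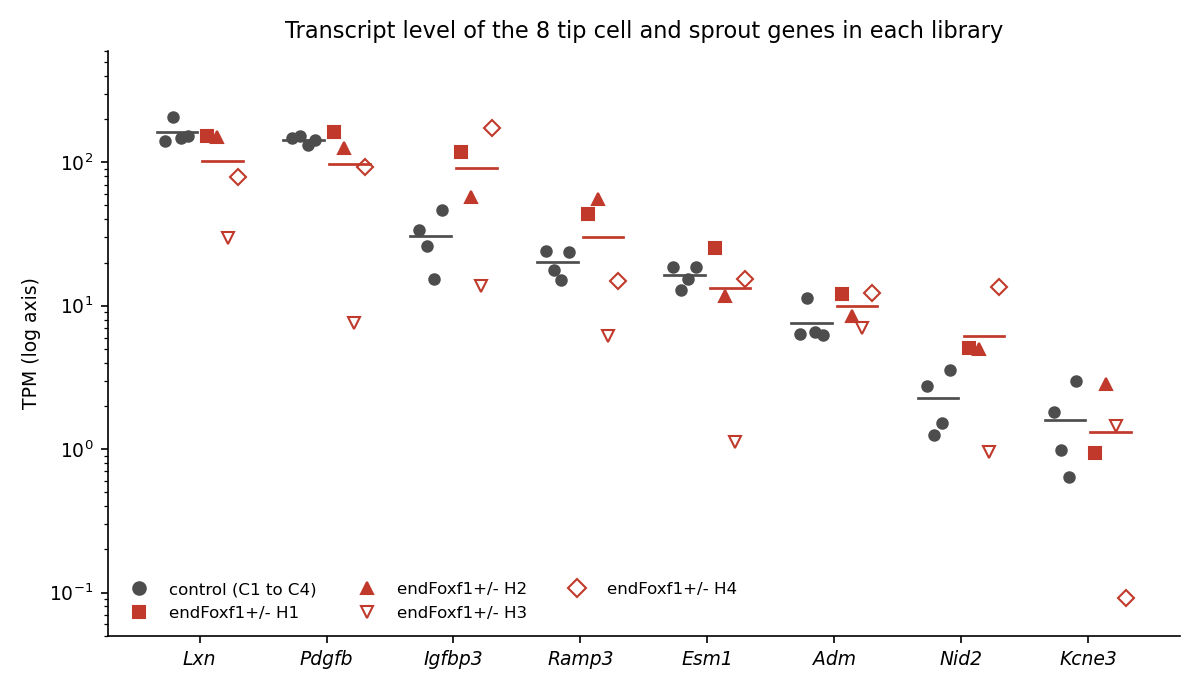
TPM of each gene (log axis) in the 4 control libraries (grey circles) and the 4 end*Foxf1*+/- libraries (red, 1 symbol for each library, open for H3 and H4), with bars at the group means of TPM. *Igfbp3* and *Nid2* sit above all control libraries in H1, H2 and H4 and below them in H3, whereas *Pdgfb* falls to 7.58 TPM in H3.

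Over all 8 libraries *Igfbp3* had the highest log2 difference of the 8 genes on both scales. It encodes a secreted binding protein that carries insulin-like growth factors in blood and tissue. It lies on chromosome 11 of GRCm38, minus strand, 7206086 to 7213923. *Igfbp3* was at 34.0, 25.9, 15.3 and 46.4 TPM in C1 to C4 and at 118, 57.3, 13.8 and 174 TPM in H1 to H4. All end*Foxf1*+/- libraries except H3 were above the highest control library, and H3 was below the lowest. Group means were 30.4 ± 13.1 TPM in control and 90.9 ± 70.05 TPM in end*Foxf1*+/- TECs (SD, n = 4 each), a log2 difference of 1.16 (standard error 0.70, limma adjusted p = 0.790). Without H3 the groups did not overlap, and the log2 difference was 1.87 (standard error 0.44, limma adjusted p = 0.445; exact permutation p = 0.0571, the smallest that 4 libraries against 3 allow). Without H4 the log2 difference was 0.68.

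As a share of the endothelial level, *Igfbp3* was at 8.43, 6.71, 4.90 and 11.3% in control libraries and at 28.5, 13.5, 64.8 and 76.2% in H1 to H4. Every end*Foxf1*+/- library was above every control library (exact permutation p = 0.0286, two-sided, the smallest that 4 against 4 allow). The log2 difference relative to the markers was 2.31 (standard error 0.74, unadjusted p = 0.00544, limma adjusted p = 0.522), which ranked 11 of 14964 genes by p. Counted from the median of all genes it was 1.33, and 1.90% of tested genes had a larger difference. Without H3 the log2 difference relative to the markers was 2.04, and without H3 and H4 it was 1.39. In TPM *Igfbp3*, like *Nid2* described next, was lowest of all libraries in H3 and highest in H4, as were 10.3% of all tested genes. Markers of other cell types with that order were 3 of 6 lymphatic (*Mmrn1*, *Prox1* and *Reln*) and 2 of 8 epithelial (*Sftpb* and *Nkx2-1*). It was also seen in 1 of 10 pericyte and fibroblast (*Col1a2*, at 2.39 TPM in H3 and 23.8 TPM in H4), 0 of 10 myeloid and 0 of 3 mesothelial markers. The 3 mesothelial markers summed to 1.73 to 4.82 TPM in control libraries, 1.45 in H3 and 18.5 in H4, where *Msln* alone was at 15.8 TPM. The 6 lymphatic markers summed to 410 to 646 TPM in control libraries and to 553, 755, 74.2 and 583 TPM in H1 to H4. The part of other cell types in the levels of *Igfbp3* and *Nid2* was not tested.

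*Nid2* ran closely alongside *Igfbp3*. It encodes nidogen-2, a basement membrane glycoprotein that links laminin and collagen IV networks. It lies on chromosome 14, plus strand, 19751265 to 19811787. *Nid2* was at 2.77, 1.24, 1.52 and 3.58 TPM in control libraries and at 5.08, 5.01, 0.948 and 13.6 TPM in H1 to H4. Again H1, H2 and H4 were above every control library and H3 was below them. The log2 difference was 0.85 (standard error 0.56, limma adjusted p = 0.790), 1.37 without H3 (standard error 0.40, limma adjusted p = 0.567; exact permutation p = 0.0571) and 0.40 without H4 (standard error 0.48, limma adjusted p = 0.840). Relative to the endothelial markers it was 2.01 (standard error 0.90, unadjusted p = 0.0377, limma adjusted p = 0.522), with all 4 end*Foxf1*+/- libraries above all control libraries (exact permutation p = 0.0286). This fell to 1.54 without H3 and to 0.82 without H3 and H4. The 3′ end of *Nid2* shares 437 exon bases with *Rtraf* on the opposite strand, and no source states that reads were counted by strand, so reads of these genes cannot be told apart there. *Rtraf*, which the tables list under the older symbol 2700060E02Rik, was at 76.6 to 84.3 TPM in control and at 60.2, 91.6, 93.3 and 94.1 TPM in H1 to H4, lowest in H1 and highest in H4, where *Nid2* was also highest, and its part in the level of *Nid2* was not tested.

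*Ramp3* was the third gene above all control libraries relative to the endothelial markers. Its product pairs with the calcitonin receptor-like receptor, encoded by *Calcrl*, to form an adrenomedullin receptor. It lies on chromosome 11, plus strand, 6658521 to 6677475. *Ramp3* was at 24.2, 17.6, 15.2 and 23.8 TPM in control libraries and at 43.6, 55.5, 6.18 and 14.8 TPM in H1 to H4. H1 and H2 were above every control library and H3 and H4 below every one. The log2 difference was 0.15 (standard error 0.59, limma adjusted p = 0.947) over all libraries, 0.71 without H3 and 1.27 without H3 and H4 (limma adjusted p = 0.192), but −0.16 without H1 and −0.28 without H2. As a share of the endothelial level it was at 6.06, 4.65, 4.88 and 5.93% in control libraries and at 10.6, 13.1, 31.4 and 6.90% in H1 to H4, with no overlap (exact permutation p = 0.0286). The log2 difference relative to the markers was 1.304 (standard error 0.74, limma adjusted p = 0.522), 0.89 without H3 and 1.15 without H3 and H4. Counted from the median of all genes, it was 0.32, and 20.6% of tested genes had a larger difference.

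*Adm* encodes adrenomedullin, the peptide ligand of the receptor that *Ramp3* helps to form and a known hypoxia-induced transcript. It lies on chromosome 7, plus strand, 110627661 to 110629820. *Adm* was at 6.31, 11.3, 6.55 and 6.23 TPM in control libraries and at 12.01, 8.47, 6.98 and 12.3 TPM in H1 to H4. Control library C2 stood above the other control libraries and inside the range of the end*Foxf1*+/- libraries, and without it every end*Foxf1*+/- library was above every control library, beside 3.28% of all genes. The log2 difference was 0.36 (standard error 0.29, limma adjusted p = 0.797; exact permutation p = 0.171), and 0.50 without H3. Relative to the endothelial markers it was 1.51 (standard error 0.91, limma adjusted p = 0.522), 0.67 without H3 and 0.29 without H3 and H4. The large value over all libraries came with H3, in which the endothelial level was 5.59% of the control mean while the TPM of *Adm* lay within the control range.

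**Figure D3:**
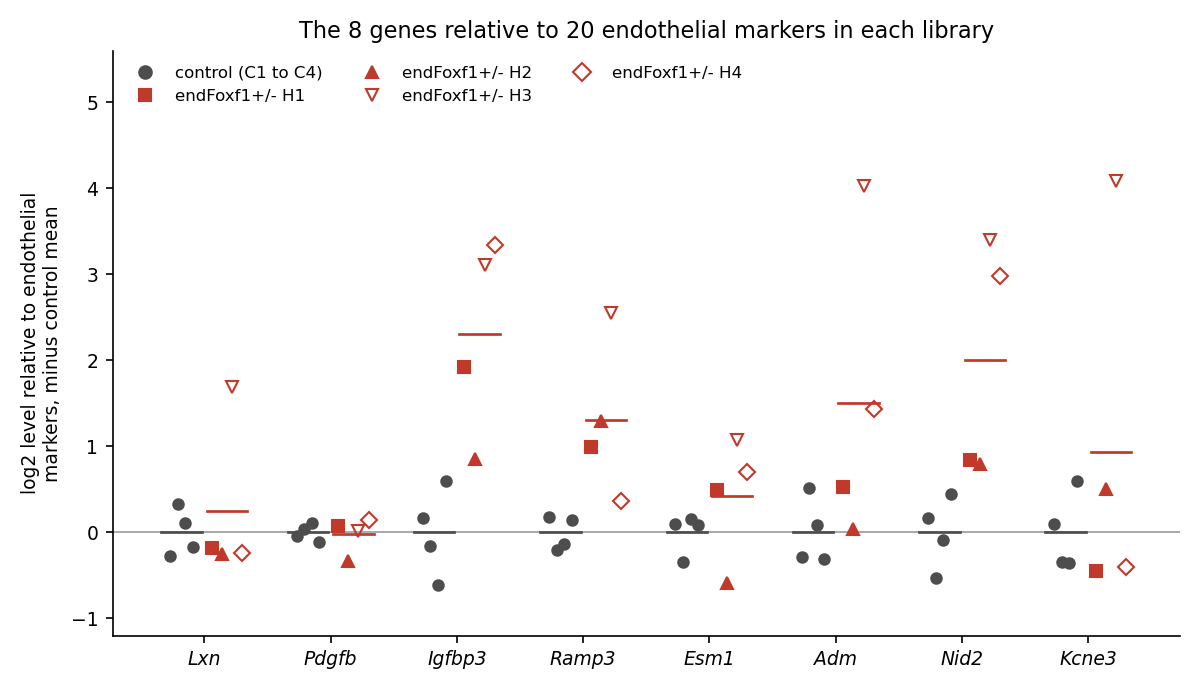
The log2 level of each gene relative to 20 endothelial markers, minus the mean of the 4 control libraries (vertical axis, 0 is the control mean), in control (grey circles) and end*Foxf1*+/- libraries (red, 1 symbol for each library, open for H3 and H4), with bars at the group means. *Igfbp3*, *Nid2* and *Ramp3* lie above all control libraries in each end*Foxf1*+/- library, and *Pdgfb* stays near 0 in all of them.

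*Pdgfb* kept a similar ratio to the endothelial level in all 8 libraries, between 29.5 and 41.0%. It encodes the B chain of platelet-derived growth factor, with which tip cells recruit pericytes that carry the receptor *Pdgfrb*. It lies on chromosome 15, minus strand, 79995874 to 80014977. *Pdgfb* was at 148, 152, 131 and 142 TPM in control libraries and at 163, 126, 7.58 and 93.0 TPM in H1 to H4. H1 was above every control library and H2, H3 and H4 below every one, a log2 difference of −1.17 (standard error 0.80, limma adjusted p = 0.790) that became −0.21 without H3. As a share of the endothelial level it was at 36.0, 38.1, 39.8 and 34.3% in control libraries and at 39.1, 29.5, 37.5 and 41.0% in H1 to H4. The log2 difference relative to the markers was −0.02, with a 95% interval of ± 1.32, or −0.03 ± 0.37 without H3.

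*Lxn* and *Esm1* were also low in H3 and overlapped between the groups on both scales. *Lxn* encodes latexin, an inhibitor of carboxypeptidases, and lies on chromosome 3, minus strand, 67457998 to 67463926. It was at 142, 209, 148 and 154 TPM in control libraries and at 153, 149, 29.7 and 79.5 TPM in H1 to H4, with H3 and H4 below every control library. The log2 difference was −0.90 (standard error 0.48, limma adjusted p = 0.790), −0.40 without H3 and −0.09 without H3 and H4. Relative to the endothelial markers it was 0.25, or −0.23 without H3. *Lxn* shares 63 exon bases with *Gfm1* on the opposite strand, which was at 23.1 to 32.2 TPM in control and 21.9 to 31.8 TPM in end*Foxf1*+/- libraries.

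*Esm1* encodes endocan, a secreted proteoglycan that vascular endothelial growth factor induces and a widely used tip cell marker. It lies on chromosome 13, plus strand, 113209659 to 113218098. *Esm1* was at 18.6, 12.9, 15.3 and 18.6 TPM in control libraries and at 25.1, 11.6, 1.12 and 15.4 TPM in H1 to H4, so that H1 was above and H2 and H3 below every control library. The log2 difference was −0.73 (standard error 0.67, limma adjusted p = 0.797), 0.03 without H3 and −1.18 without H1. Relative to the endothelial markers it was 0.42, or 0.20 without H3, with 3 of 4 end*Foxf1*+/- libraries above and H2 below all control libraries.

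*Kcne3*, on chromosome 7, plus strand, 100176502 to 100184869, encodes an accessory subunit of potassium channels. It was the least abundant of the 8, at 1.80, 0.988, 0.634 and 2.99 TPM in control libraries and at 0.933, 2.84, 1.44 and 0.0915 TPM in H1 to H4. Only H4 fell outside the control range. The log2 difference was −0.22 (standard error 0.44, limma adjusted p = 0.890), −0.29 without H3 and 0.10 without H4, 0.93 relative to the endothelial markers and −0.12 on that scale without H3. At this level the pseudocount of 1 weighs on both scales.

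On the TPM scale, 0 of the 8 genes had an adjusted p under 0.05 or an unadjusted p under 0.05 from limma, where 0% and 5.59% of all tested genes did, and 0 of the 8 had groups that did not overlap, against 5.04% of all genes in either direction. In TPM 0 of the 8 were above all control libraries, against 2.73% of all genes. Without H3 the 2 genes above all control libraries were *Igfbp3* and *Nid2*, against 6.5% of all genes. Relative to the endothelial markers 0 of the 8 had an adjusted p under 0.05, against 0.00668% of all genes, and *Igfbp3* and *Nid2* had an unadjusted p under 0.05, against 1.97%. The 3 genes above all control libraries on that scale, *Igfbp3*, *Nid2* and *Ramp3*, compare with 7.48% of all genes, or 7.49% without H3, where the 3 genes were again above all control libraries. Against *Pecam1* or *Cdh5* alone instead of the 20 markers, *Igfbp3* and *Nid2* were above all control libraries and *Ramp3* was not (exact permutation p = 0.0571), beside 4.3% of all genes against *Pecam1* and 12.9% against *Cdh5*. Against the marker median only *Ramp3* of the 8 was, beside 1.62% of all genes, so the share of all genes moved with the reference. The median log2 difference over the 8 genes was −0.03 on the TPM scale, beside −0.17 over all genes, and 1.12 relative to the markers, beside 0.98. Without H3 these medians were 0.26 beside 0.01, and 0.44 beside 0.19.

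**Figure D4:**
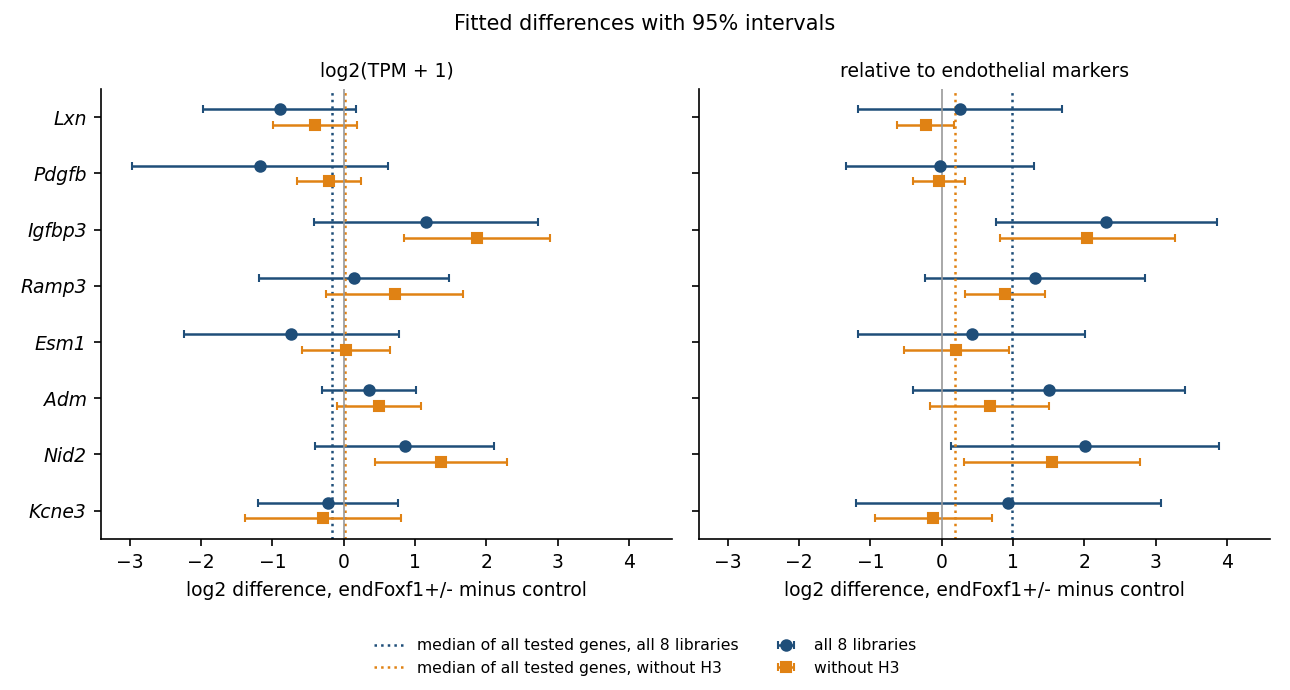
Log2 differences between end*Foxf1*+/- and control TECs (horizontal axes) for each gene on the TPM scale (left) and relative to endothelial markers (right), from limma with 95% intervals, over all 8 libraries (blue circles) and without H3 (orange squares). Dotted lines mark the median of all tested genes, at −0.17 and 0.98 with all libraries. *Igfbp3* has the highest value on both sides, at 1.16 and 2.31.

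The 1 gene past the adjusted threshold relative to the markers was *Esr1*, which is named here after its values were seen. *Esr1* encodes an estrogen receptor, and the recombinase of CreER mice is a fusion of Cre with part of an estrogen receptor. *Esr1* was at 0.368 to 0.750 TPM in control libraries and at 140, 84.7, 11.1 and 124 TPM in H1 to H4. Since the CreER transgene is driven by the *Pdgfb* promoter, it was set beside *Pdgfb*, and came to 0.280 to 0.505 per 100 TPM of *Pdgfb* in control libraries and to 86.0, 67.3, 146 and 134 in H1 to H4. Whether these reads came from the transgene was not tested.

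The level of the 8 genes did not vary as 1 block. Across the 8 libraries 24 of the 28 pairs of genes had a positive Pearson correlation of log2(TPM + 1), and 17 without H3. *Nid2* and *Igfbp3* had r = 0.945 over 8 libraries and 0.929 over the 7 without H3. *Lxn* and *Pdgfb* had r = 0.951 and 0.856, and *Esm1* and *Pdgfb* r = 0.964 and 0.420. *Lxn* and *Nid2* had r = 0.0939 over 8 libraries and −0.859 without H3. The libraries share their endothelial level and the fixed TPM total, and these values are a description.

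For each gene the 2 most similar of 8815 genes with a mean TPM of at least 10 were found by Pearson r over the 8 libraries. For *Igfbp3* these were *Ddx39b* (r = 0.983, and 0.978 without H3) and *Ptpn11* (r = 0.9745 and 0.994), and for *Nid2* they were *Atg7* and *Dcaf7* (r = 0.987 and 0.984, and 0.984 and 0.986 without H3). *Vps35* and *Cul4a* were nearest to *Ramp3* (r = 0.986 and 0.984), and *Mcts2* and *Rpe* to *Adm* (r = 0.898 and 0.893). *Pdgfb* was nearest to *Shank3*, a gene expressed in endothelium, and to *Zfp715* (r = 0.998 each, and 0.933 and 0.950 without H3). *Lxn* was nearest to *Plac9a* and *Manea* (r = 0.997 and 0.993), *Esm1* to *Cmtm6* and *Armcx2* (r = 0.992 and 0.989), and *Kcne3* to *Tmem184c* and *Atp6v0b* (r = 0.961 and 0.915). These are the highest values among many candidates over few libraries.

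The reference promoters of 3 genes are printed to show the sequence upstream of genes that differed in pattern: those of *Igfbp3* and *Ramp3*, which were above all control libraries relative to the endothelial markers, and that of *Lxn*, which was not. RefSeq promoters on GRCm38.p6, from 250 bases before to 50 bases after a gene start, were at hand for 6 of the 8 genes, with 2 starts for *Kcne3*, and not for *Nid2* or *Pdgfb*. Capitals mark every match, on either strand, to ACGTG (core of the hypoxia response element), GTAAACA (forkhead), GGAAG (ETS core) or CACGTG (E-box). ACGTG also lies inside CACGTG. The windows are chr11:7213874-7214173 on the minus strand for *Igfbp3*, chr11:6658283-6658582 on the plus strand for *Ramp3* and chr3:67463858-67464157 on the minus strand for *Lxn*, each printed 5′ to 3′ on the strand of the gene.
Igfbp3: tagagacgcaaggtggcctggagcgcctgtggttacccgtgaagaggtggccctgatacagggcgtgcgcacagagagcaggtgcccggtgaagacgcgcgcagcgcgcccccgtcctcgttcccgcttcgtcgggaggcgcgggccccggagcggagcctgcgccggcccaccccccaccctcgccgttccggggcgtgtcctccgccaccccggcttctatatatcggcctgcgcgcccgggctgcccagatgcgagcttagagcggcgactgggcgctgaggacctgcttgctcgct
Ramp3: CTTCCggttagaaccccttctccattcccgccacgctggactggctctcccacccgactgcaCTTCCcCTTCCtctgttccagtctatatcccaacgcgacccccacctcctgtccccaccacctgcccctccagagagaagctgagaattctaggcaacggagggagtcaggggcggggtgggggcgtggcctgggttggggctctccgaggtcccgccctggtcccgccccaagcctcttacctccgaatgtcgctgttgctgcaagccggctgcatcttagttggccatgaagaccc
Lxn: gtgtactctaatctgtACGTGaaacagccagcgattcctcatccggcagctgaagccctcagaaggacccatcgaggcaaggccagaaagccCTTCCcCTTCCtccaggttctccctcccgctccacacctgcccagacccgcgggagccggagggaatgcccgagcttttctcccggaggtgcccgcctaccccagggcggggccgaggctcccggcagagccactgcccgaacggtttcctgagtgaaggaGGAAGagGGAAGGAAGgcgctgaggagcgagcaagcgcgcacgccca
The *Igfbp3* window, with a GC content of 71.7%, held none of the 4 words. The *Ramp3* window held GGAAG 3 times, all on the strand opposite to the gene, and the *Lxn* window held it 5 times and ACGTG once. Of all 32851 promoters of this length, 71.4% held GGAAG, 19.6% ACGTG, 7.15% CACGTG and 3.65% GTAAACA. Among the 7 windows of the 6 genes, GGAAG was found in 5, ACGTG in 2 (*Lxn* and 1 of the *Kcne3* starts), and CACGTG and GTAAACA in 0. A match is a run of letters and not a known site, and the windows are short.

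The partners of the 8 genes are given by system. In the adrenomedullin system *Calcrl*, the receptor that pairs with the products of *Ramp2* and *Ramp3*, was at 2437 to 3514 TPM in control libraries and at 2687, 2911, 114 and 1226 TPM in H1 to H4. *Ramp2*, its main endothelial partner, was at 1822 to 2650 TPM in control and at 1861, 2381, 111 and 899 TPM in H1 to H4. Both were within the control range in H1 and H2, the libraries in which *Ramp3* was highest. Of the 4 tested genes of this list, 1 was higher and 3 were lower on the TPM scale, beside 32.0% of all genes higher. Relative to the markers 2 were higher and 2 lower, beside 96.9% of all genes higher. On both scales 0 passed the adjusted threshold.

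Among 5 PDGF system genes, *Pdgfrb*, the pericyte receptor for the *Pdgfb* product, was at 5.24 to 8.22 TPM in control and at 6.33, 3.72, 5.95 and 2.81 TPM in H1 to H4. *Pdgfc*, a further ligand gene, was at 0.700 to 1.001 TPM in control libraries and at 2.45, 2.47, 26.7 and 1.0001 TPM in H1 to H4. It was 1 of the 5 above all control libraries relative to the markers, beside 7.48% of all genes. In the IGF system, 5 of 11 tested genes were higher on the TPM scale and 11 of 11 relative to the markers, or 7 of 11 without H3, beside 96.9% and 71.4% of all genes. *Igf1*, a ligand bound by the *Igfbp3* product, was at 3.41 to 9.98 TPM in control and at 11.6, 19.9, 37.8 and 2.12 TPM in H1 to H4. Its receptor *Igf1r* stayed between 16.2 and 23.0 TPM in control and between 13.8 and 23.9 TPM in end*Foxf1*+/- libraries. *Igfbp4*, another binding protein gene, was at 79.9 to 132 TPM in control and at 137, 138, 103 and 79.0 TPM in H1 to H4. It was 1 of the 11 above all control libraries relative to the markers, beside 7.48% of all genes.

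Genes of the basement membrane, to which the *Nid2* product belongs, were higher more often than not. Of 12 tested, 7 were higher on the TPM scale, beside 32.0% of all genes, and 11 without H3, beside 51.7%. Relative to the markers 12 of 12 were higher, beside 96.9% of all genes, and 12 without H3, beside 71.4%. On that scale 6 of the 12 were above all control libraries, beside 7.48% of all genes: *Lamb1*, *Col18a1*, *Hspg2*, *Col4a1*, *Col4a2* and *Sparc*. *Lamb1*, a laminin chain, was at 7.19 to 15.8 TPM in control and at 23.7, 24.9, 75.9 and 44.2 TPM in H1 to H4, a log2 difference of 1.79 (standard error 0.41, limma adjusted p = 0.790). *Col18a1*, the source of endostatin, was at 6.12 to 16.2 TPM in control and 21.8, 22.6, 53.2 and 23.1 TPM in H1 to H4 (log2 difference 1.41). *Hspg2*, which encodes perlecan, was at 5.63 to 11.2 TPM and at 21.1, 13.2, 24.7 and 47.9 TPM (log2 difference 1.502). For *Lamb1*, *Col18a1* and *Hspg2* every end*Foxf1*+/- library was above every control library also in TPM, and none passed the adjusted threshold over all libraries, although with array weights *Lamb1* did (limma adjusted p = 0.0413). *Nid1*, the paralog of *Nid2*, was at 77.9 to 101 TPM in control and at 120, 101, 113 and 89.4 TPM in H1 to H4. In H3 *Lamb1* and *Col18a1* were highest, as were 3 of the 10 pericyte and fibroblast markers, while 4 of the 10 were lowest there, and the part of these cells in the result was not tested.

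Other tip cell and sprout genes gave a mixed picture. Of 20 tested, 8 were higher and 12 lower on the TPM scale, or 14 and 6 without H3, and 17 were higher relative to the markers, or 15 without H3, where 96.9% and 71.4% of all genes were. *Mmp14*, a membrane-bound protease of invading cells, was at 14.7 to 19.2 TPM in control and at 30.7, 28.3, 84.1 and 42.1 TPM in H1 to H4 (log2 difference 1.24, standard error 0.34, limma adjusted p = 0.790), with no overlap. *Cxcr4*, the chemokine receptor of tip cells, was at 15.9 to 22.7 TPM and at 32.6, 30.4, 20.6 and 51.4 TPM (log2 difference 0.70), and *Pgf*, placental growth factor, at 4.07 to 8.56 TPM and at 17.8, 10.1, 4.01 and 12.4 TPM (log2 difference 0.77). Both overlapped in TPM because of H3 and, like *Cd34* and *Mmp14*, were above all control libraries relative to the markers. These were 4 of the 20, beside 7.48% of all genes, and in TPM it was 1 of the 20, beside 2.73%. In contrast *Apln*, a peptide ligand of sprouting vessels, was at 98.9 to 157 TPM in control and at 119, 50.4, 6.34 and 123 TPM in H1 to H4. *Angpt2*, which encodes a TIE2 ligand, was at 20.6 to 26.6 TPM and at 36.1, 18.1, 8.67 and 34.3 TPM. *Dll4*, the Notch ligand of tip cells, was at 60.9 to 72.0 TPM and at 89.4, 74.7, 3.41 and 36.3 TPM.

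Of 8 stalk and vein genes, 1 was higher and 7 lower in TPM, beside 32.0% of all genes higher, and 4 and 4 without H3, beside 51.7%. Relative to the markers 7 were higher and 1 lower, beside 96.9% of all genes higher, and 4 and 4 without H3, beside 71.4%. *Hes1*, a Notch target, was below every control library at 54.1, 50.2, 12.8 and 51.9 TPM in H1 to H4, against 69.3 to 85.8 TPM. In TPM 345 of all 14964 tested genes were below every control library. Relative to the markers 0 of the 8 were. *Aplnr* and *Ackr1*, 2 of the 8, were above all control libraries relative to the markers, beside 7.48% of all genes. Of 2 tested potassium channel partners both were lower in TPM, and 1 was higher and 1 lower relative to the markers, beside 96.9% of all genes higher. *Kcnq1* was at 31.1 to 36.9 TPM in control and at 20.4, 36.6, 2.74 and 19.3 TPM in H1 to H4. *Rarres1*, a relative of *Lxn*, was at 2.99 to 5.99 TPM in control and at 3.14, 4.76, 0.412 and 3.73 TPM in H1 to H4. Of 5 *Esm1* inducers and ligand partners 2 were higher in TPM, beside 32.0% of all genes, and 3 without H3, beside 51.7%. Relative to the markers 5 were higher, beside 96.9% of all genes, and 3 without H3, beside 71.4%. *Vegfa* was at 207 to 399 TPM in control and at 331, 375, 29.9 and 241 TPM in H1 to H4.

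Hypoxia-induced genes were listed because *Adm* and *Igfbp3* are known to respond to low oxygen. Of 14 tested, 10 were higher in TPM, beside 32.0% of all genes, and 11 without H3, beside 51.7%. *Egln3*, *Eno1*, *Slc2a1* and *Pgk1* were above every control library in TPM, 4 of 14, beside 2.73% of all genes. Relative to the markers 14 of 14 were higher, beside 96.9% of all genes, and 2 of 14, *Egln3* and *Eno1*, were above every control library, beside 7.48%. *Egln3*, an oxygen sensor, was at 1.42 to 2.08 TPM in control libraries and at 5.72, 7.07, 29.8 and 3.49 TPM in H1 to H4. *Eno1*, an enzyme of glycolysis, was at 93.7 to 121 TPM and at 153, 148, 695 and 194 TPM. Both were highest in H3, the library with the lowest endothelial level. In these lists 0 genes passed the adjusted threshold on either scale in the fit over all libraries, and with array weights, under which not every list gene was followed, *Mmp14* and *Pgf* passed it in TPM like *Lamb1* (limma adjusted p = 0.0348 and 0.0363).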

How the data were processed

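RNA-seq was performed by the study on CD45-CD31+ cells of LLC tumors, and 4 control and 4 end*Foxf1*+/- samples were deposited. The caption of the study's RNA-seq plot of *Foxf1* and *Fzd4* gives fewer samples per group and does not say which. Per the labels, libraries were made with the Nextera XT kit and the submitters' processing notes name TopHat, Cufflinks, Subread and DESeq2 and the builds GRCm38 and mm10, without roles. The authors deposited TPM, 1 value per gene symbol and library, which sum to 1000000. TPM keep no read numbers, so depth is unknown and no counting error was computed. For the same reason the study's DESeq2 step was not repeated.

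Groups were taken from the genotype labels, with libraries numbered in accession order. In R 4.3.3 with limma 3.58.1 (lmFit, eBayes with a trend), log2(TPM + 1) was fitted for 14964 genes (TPM 1 or more in 4 or more libraries), with Benjamini-Hochberg adjustment over all of them and a threshold of 0.05. All 8 genes passed this filter. The pseudocount of 1 understates the change of low genes on the TPM scale. Relative to the markers it can act either way. With pseudocounts of 0.1, 1 and 5, *Kcne3* was at 0.58, 0.93 and 1.01 there, and *Nid2* at 2.19, 2.01 and 1.59. The second scale subtracts the library mean of log2(TPM + 1) over 20 endothelial markers. For single genes, all assignments of libraries to groups gave an exact permutation p, two-sided. The script was tested on simulated data. None of the 28 pairs of libraries was identical. Gene coordinates come from GENCODE vM21 (GRCm38), which holds 32159 of the symbols, and promoters come from RefSeq (GRCm38.p6).

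The 8 genes, lists, markers and tests were chosen with earlier results of these data known. Named were the 8 genes, set partners (*Calcrl*, *Ramp2*, *Pdgfrb*, *Nid1*, *Igf1r*, *Igf1*, *Kcnq1*, *Rarres1*, *Vegfa*, *Apln*, *Cxcr4*, *Angpt2*, *Dll4*, *Foxf1*), genes of the pathway lists whose groups did not overlap on either scale, and the 2 genes most like each member. The alternatives tried were other pseudocounts (0.1 and 5), other filters (none, and TPM 5 or more), quantile normalization, median ratio scaling, removal of the most abundant gene, no trend, array weights, *Pecam1*, *Cdh5* or the marker median as reference, and libraries left out.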

Additional observations from a re-analysis of the deposited data

Results flagged for a closer look

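Values of the 8 genes were screened for a library far from the other 3 of its group, over 32 sets of 4 values (each gene, group and scale) with Dixon's gap-to-range ratio, whose critical value chance passes in about 1 of 20 sets. There were 3 such values. *Adm* was at 11.3 TPM in control library C2 and at 6.23 to 6.55 TPM in the other control libraries. *Esm1* relative to the endothelial markers was at a log2 value of −4.85 in C2 and −4.41 to −4.35 in the other control libraries. *Lxn* relative to the endothelial markers was at a log2 value of 0.42 in H3 and −1.52 to −1.45 in the other end*Foxf1*+/- libraries, and H3 is the library whose endothelial level was 5.59% of the control mean. The cause of these values was not tested.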

How the results depend on the processing

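No paired analysis was possible because the replicate numbers only name the libraries and mark no shared mouse, litter or day. The 8 genes gave 0 calls past the adjusted threshold on either scale under every alternative tried, the lowest adjusted p being 0.0540 from limma with array weights (*Ramp3* on the TPM scale). Of 308 values of the 8 genes under these alternatives, 289 kept their direction and 19 reversed. *Igfbp3*, *Nid2* and *Adm* were higher on both scales under all of them, with *Igfbp3* between 0.68 and 1.87 in TPM and between 1.01 and 2.80 relative to the markers, *Nid2* between 0.40 and 1.37 and between 0.82 and 2.41, and *Adm* between 0.25 and 0.54 and between 0.0694 (array weights) and 1.9996. With array weights *Igfbp3* (1.006) was no longer the highest of the 8 relative to the markers, after *Ramp3* (1.27) and *Nid2* (1.012). A minimum TPM of 5 left out *Nid2* and *Kcne3*.

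The number of all genes past the threshold in TPM was 0, and 148 with array weights, in which H3 received a weight of 0.0643 (among them *Lamb1*, *Mmp14* and *Pgf*), 3 without H3 and H4 (*C1qa*, *Esr1* and *Gm6851*, named after their values were seen), and 0 to 1 with a single library left out (1 without C1, *Rpl3-ps1*, or without H3, *Esr1*). Relative to the markers it was 1, and 9 with a pseudocount of 5, 15 without a filter, 10 with array weights, 2 without H3 and H4, and 1 to 2 with a single library left out (2 without C1 or H2). The number of the 8 genes without overlap in TPM was 0 (5.04% of all genes), 3 without H3 and H4 (24.4%), and 0 to 2 with a single library left out (1 without C2, 6.32%, 1 without H1, 8.47%, 2 without H3, 9.10%). Relative to the markers it was 3 (7.52%), 1 against the marker median (1.72%), and 3 to 5 with a single library left out (5 without H2, 17.6%), so the share of all genes moved with these counts.

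Reversals in TPM were *Esm1* (0.29 with array weights, 0.0791 without H3 and H4, −1.18 to 0.0310 with a library left out), *Kcne3* (0.10 with quantile normalization, 0.15 without H3 and H4, −0.51 to 0.10 with a library left out) and *Ramp3* (−0.28 to 0.71 with a library left out). Relative to the markers they were *Esm1* (−0.44 with array weights, −0.0443 without H3 and H4), *Lxn* (−0.29 with array weights, −0.22 without H3 and H4, −0.23 to 0.42 with a library left out), *Pdgfb* (0.0364 with a pseudocount of 5, 0.0142 against *Cdh5*, −0.0756 to 0.0828 with a library left out) and *Kcne3* (−0.12 to 1.39 with a library left out). On this scale array weights were 0.00679 for H1 and 0.0247 for H3. The cause of the other changes was not tested. The unknown depth and 4 libraries a group limit all values.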
